A study of Mus musculus with 18 samples.

Results

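The genes described here are 4 members of the Dlx homeobox family, Dlx1, Dlx2, Dlx5 and Dlx6, and the antisense RNA at each of their 2 loci, Dlx1as and Dlx6as1. They were picked by symbol, 6 of 38250 features in the count tables, and all 6 were among the 18627 features that passed the low-count filter. The related genes Dlx3 and Dlx4 had 26 and 4 reads over all libraries and did not pass it. RNA came from lateral cortex of C57BL/6 mouse embryos with the genotype label Btg2GFP/Tubb3GFP at embryonic day 14.5, from which meninges and ganglionic eminences were removed at dissection. Cells were separated by flow cytometry into proliferating progenitors (PP, labelled Btg2 negative and RFPminus), differentiating progenitors (DP, labelled RFPplus) and neurons (Neuron, labelled GFPplus), with 3 libraries of each, and every library was sequenced in a single-read and a paired-end run. Each library is a pool of several embryos from different litters, so differences between embryos are averaged within it. The genotype label names GFP for both reporters, whereas sample names give RFP for the sort of progenitors. All 3 groups carry both reporters, and no group without them was used here.

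Dlx proteins are homeodomain transcription factors that occur as pairs of neighbouring, convergently transcribed genes. In the forebrain they are switched on in progenitors of the ganglionic eminences, the ventral territory that the dissection aimed to remove, and stay on in the GABAergic neurons made there. Dlx1 and Dlx2 come on first, in progenitors, and Dlx5 and Dlx6 later, in cells that are leaving division. Interneurons born in the eminences migrate into the cortex around this stage, whereas the excitatory neurons of the cortex arise from its own progenitors. Dlx6as1, also called Evf2 or Dlx6os1, is a long non-coding RNA transcribed against Dlx6 that is known to modulate the expression of its neighbours.

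On mm9, the build of the deposited files, Dlx1 lay at chr2:71366170-71372038 on the plus strand in 2 exon blocks, and Dlx2 at chr2:71381466-71384811 on the minus strand in 3. A gap of 9427 bases separated them. The second pair had the same arrangement, with Dlx6 at chr6:6813334-6818568 on the plus strand and Dlx5 at chr6:6827805-6832085 on the minus strand, 9236 bases apart. Dlx1as, annotated as antisense, ran over 21438 bases of the minus strand at chr2:71354511-71375948 and covered the whole of Dlx1. One of its 6 exon blocks fell entirely inside an exon of Dlx1; this shared stretch made 20.6% of the exonic length of Dlx1as and 6.21% of that of Dlx1. Dlx6as1, also annotated as antisense, ran over 49345 bases at chr6:6770189-6819533 and covered the whole of Dlx6, but none of its 4 exon blocks overlapped an exon of Dlx6. The sources used here do not give whether reads were counted by strand, so reads from the shared stretch cannot be told apart between Dlx1 and Dlx1as. Dlx1as also ran over 8741 bases of Metap1d, a methionine aminopeptidase gene, with no shared exonic base.

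The homeobox, the stretch that codes for the DNA-binding homeodomain, is the part in which the 4 coding genes are most alike, and it is shown because reads of near-identical genes could be counted for the wrong member. The 180 coding bases of each homeobox follow, 5′ to 3′, from the GENCODE M21 transcripts Dlx1-201, Dlx2-201, Dlx5-201 and Dlx6-202; capitals mark bases that differ from Dlx1.
Dlx1: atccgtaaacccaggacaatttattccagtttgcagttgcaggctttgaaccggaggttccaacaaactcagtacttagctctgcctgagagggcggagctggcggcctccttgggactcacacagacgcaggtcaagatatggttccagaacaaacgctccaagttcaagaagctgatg
Dlx2: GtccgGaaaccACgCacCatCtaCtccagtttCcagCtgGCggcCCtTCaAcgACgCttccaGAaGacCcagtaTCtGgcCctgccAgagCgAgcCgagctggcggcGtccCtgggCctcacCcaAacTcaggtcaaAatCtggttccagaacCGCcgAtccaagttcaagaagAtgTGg
Dlx5: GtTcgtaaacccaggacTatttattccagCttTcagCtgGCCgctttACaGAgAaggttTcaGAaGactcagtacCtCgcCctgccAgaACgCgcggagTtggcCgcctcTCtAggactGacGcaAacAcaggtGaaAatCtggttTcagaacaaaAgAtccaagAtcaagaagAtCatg
Dlx6: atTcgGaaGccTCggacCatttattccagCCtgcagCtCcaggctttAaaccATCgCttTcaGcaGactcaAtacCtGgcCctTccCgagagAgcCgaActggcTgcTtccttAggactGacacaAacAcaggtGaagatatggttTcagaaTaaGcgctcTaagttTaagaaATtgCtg
Against Dlx1, 47 of 180 bases differed in Dlx2, 43 in Dlx5 and 42 in Dlx6. Few of them altered the encoded amino acid: 2 of 60 codons coded for another one in Dlx6, 7 in Dlx5 and 8 in Dlx2. Over the whole transcripts, the longest run shared by any pair of the 4 genes was 23 bases, between Dlx2 and Dlx6, and the shortest such maximum was 12 bases.

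Promoter windows, 250 bases before to 50 after an annotated start, were found in RefSeq (GRCm38.p6) for 3 of the 6 genes, 4 windows in all. They were searched on both strands for TAATTA, a core sequence that Dlx homeodomains can bind, and for CAGCTG, an E-box sequence. The 2 windows printed are those of Dlx2, which held neither motif, and of Dlx6as1, which held the most matches; capitals mark the motifs, which do not overlap each other.
Dlx2: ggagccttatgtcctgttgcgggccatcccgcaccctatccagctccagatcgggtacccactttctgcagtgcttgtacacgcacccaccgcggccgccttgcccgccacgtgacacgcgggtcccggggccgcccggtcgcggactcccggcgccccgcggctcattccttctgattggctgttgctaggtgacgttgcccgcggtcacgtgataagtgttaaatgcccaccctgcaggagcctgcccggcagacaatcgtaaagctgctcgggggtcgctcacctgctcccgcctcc
Dlx6as1: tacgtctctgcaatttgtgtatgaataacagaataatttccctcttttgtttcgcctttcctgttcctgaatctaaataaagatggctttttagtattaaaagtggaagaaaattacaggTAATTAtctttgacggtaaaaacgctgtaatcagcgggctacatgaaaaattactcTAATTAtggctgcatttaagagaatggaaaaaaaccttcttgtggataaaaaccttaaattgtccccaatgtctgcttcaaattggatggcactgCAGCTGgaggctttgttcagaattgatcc
The first is chr2:71546705-71547004 and the second chr6:6869484-6869783, both on the minus strand of GRCm38.p6, not of the build of the counts. The Dlx6as1 window held 2 matches to TAATTA and 1 to CAGCTG. A second Dlx6as1 window held 1 match to TAATTA, and the window of Dlx1 held none of either. Of 32851 mouse promoter windows of this length, 5.29% held TAATTA, 0.490% held it 2 or more times and 16.3% held CAGCTG.

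The libraries held between 34337209 and 55935128 counted reads. Count columns carry library numbers that fall into 3 sets of consecutive numbers, each with 1 library of every group: L222, L223 and L224, then L355, L356 and L357, then L393, L394 and L395. Libraries of 1 set deviated from their group means together, so a fit with the set as a replicate block is given wherever it changes the call of a member. Marker genes went with the labels: 8 of 8 markers of proliferating progenitors were highest in PP, 6 of 6 of differentiating progenitors in DP and 7 of 7 of neurons in Neuron. The reporter gene Btg2 stood at 445 ± 67.6 CPM (reads of a gene scaled to a common library total) in PP, 888 ± 251 in DP and 169 ± 22.2 in Neuron, and Tubb3 at 87.9 ± 29.5, 581 ± 98.9 and 2384 ± 261 (SD, n = 3). The markers of red cells summed to between 8359 and 15287 CPM in PP, 17.4 to 118 in DP and 9.04 to 13.5 in Neuron, and their part in the results was not tested.

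All 6 genes were lowest in PP, intermediate in DP and highest in Neuron on the mean of 3 libraries. Within every set the order was the same for every gene: DP was above PP in 18 of 18 pairs of libraries, and Neuron above DP in 18 of 18. The 6 genes were read in the same libraries, so these pairs are not independent of each other. The share of all features with this order was not counted. The libraries of PP and of DP were far apart from each other, however, and those of Neuron much closer. Levels below are CPM on totals scaled by the trimmed mean of M values (TMM), in the order of the 3 sets. In sorted pools, fewer cells that express a gene and less RNA of it per cell cannot be told apart.

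**Figure D1:**
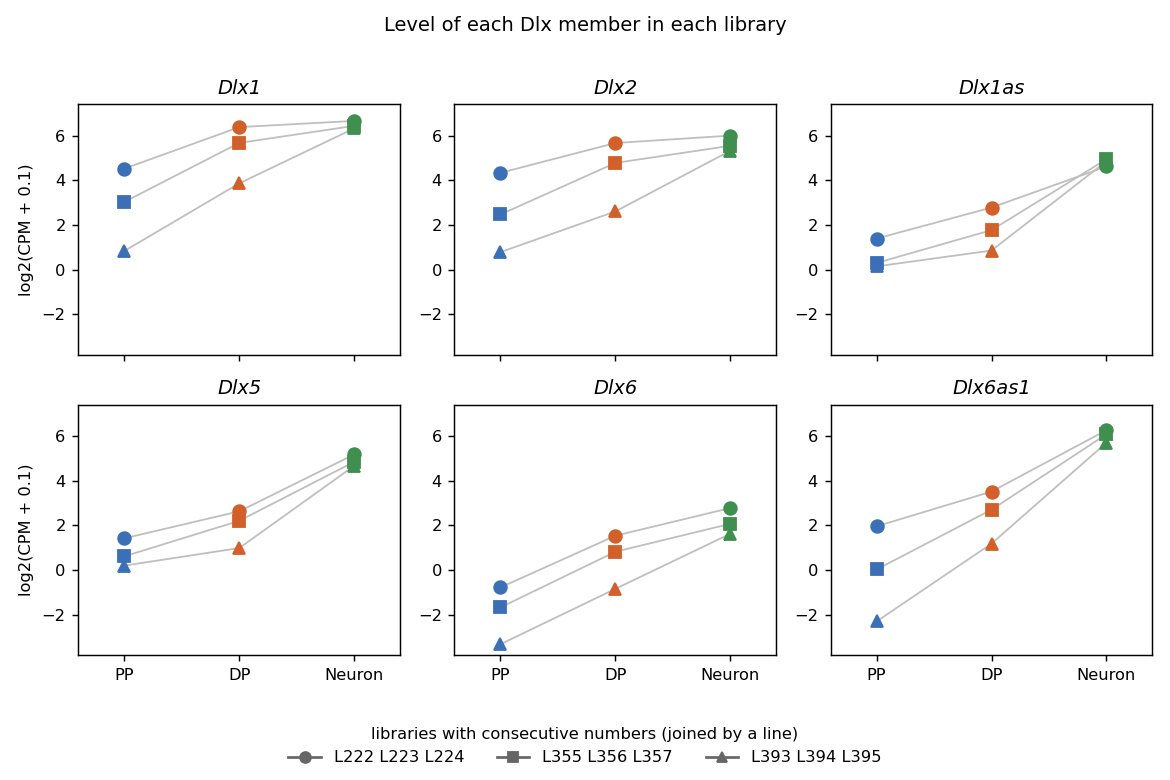
Level of each gene in each library, as log2(CPM + 0.1) on the y axis, for the 3 groups on the x axis; each point is 1 library, its shape gives the set of consecutive library numbers and a grey line joins the libraries of a set. In all 6 panels the lines rise from PP to DP to Neuron, and the PP and DP points spread more widely than the Neuron points.

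Dlx1, which together with Dlx2 acts first in ventral progenitors, stood at 22.9, 8.09 and 1.68 CPM in PP, at 83.5, 51.0 and 14.5 in DP and at 101, 86.7 and 80.2 in Neuron. Dlx2 stood at 20.1, 5.45 and 1.62 CPM in PP, at 50.9, 27.4 and 6.01 in DP and at 64.1, 46.7 and 40.0 in Neuron. For both genes the PP library L222 was higher than the DP library L394, so PP and DP overlapped. DP and Neuron overlapped as well, because the DP library L223 exceeded at least 1 Neuron library.

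Dlx5, which follows Dlx1 and Dlx2 in differentiating ventral cells, stood at 2.58, 1.43 and 1.05 CPM in PP, at 6.10, 4.51 and 1.88 in DP and at 36.1, 28.7 and 25.4 in Neuron. Dlx6, its partner on chromosome 6, had the fewest reads of the 6, with 18, 10 and 0 reads in PP, which is 0.483, 0.214 and 0 CPM. The 0 reads in L393 allow a level of up to 0.0616 CPM (3 reads), counting error only. Dlx6 reached 2.80, 1.67 and 0.458 CPM in DP and 6.77, 4.10 and 2.99 in Neuron. Both genes overlapped between PP and DP, and for both every Neuron library was above every DP library.

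Dlx1as stood at 2.52, 1.13 and 1.01 CPM in PP, at 6.78, 3.31 and 1.71 in DP and at 24.5, 30.8 and 28.9 in Neuron. Dlx6as1 stood at 3.79, 0.918 and 0.103 CPM in PP, at 11.3, 6.41 and 2.17 in DP and at 76.7, 67.6 and 52.1 in Neuron. The antisense RNAs thus had the same order of groups as the coding genes, again with PP L222 above DP L394 and with Neuron apart from both progenitor groups. Dlx1as was the only 1 of the 6 that was lowest, not highest, in L224 among the Neuron libraries.

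Per kb of exon, the levels in Neuron were 21.1 ± 3.87 CPM for Dlx5, 17.6 ± 4.36 for Dlx2, 17.2 ± 1.97 for Dlx1as, 16.6 ± 1.99 for Dlx1, 13.4 ± 2.56 for Dlx6as1 and 1.94 ± 0.817 for Dlx6 (SD, n = 3). Neighbours in this order overlapped between libraries except Dlx6as1 and Dlx6. In DP the order per kb was Dlx2 at 9.84 ± 7.87 CPM, Dlx1 at 9.21 ± 6.40, Dlx5 at 2.93 ± 1.50, Dlx1as at 2.41 ± 1.59, Dlx6as1 at 1.36 ± 0.940 and Dlx6 at 0.691 ± 0.493 (SD, n = 3), and each neighbour overlapped the next. In PP, Dlx2 and Dlx1 again came first, at 3.17 ± 3.42 and 2.02 ± 2.02 CPM per kb, and Dlx6 last, at 0.0978 ± 0.102 (SD, n = 3). On the mean per length, Dlx5 thus stood below Dlx1 and Dlx2 in both progenitor groups and first in Neuron, but in PP L393 it stood above them, at 0.736 CPM per kb against 0.312 for Dlx1 and 0.569 for Dlx2.

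Comparing DP with PP asks which transcripts change as progenitors turn to differentiation. Of the 6 genes, 5 rose from PP to DP in the quasi-likelihood test of edgeR (p adjusted over all features, threshold 0.05), against 41.4% of all features called, 21.3% higher and 20.2% lower. Their median log2 fold change was 1.91, that of all features -0.02. Dlx6 had the largest change, 7.54-fold (log2 2.91 ± 0.79 SE, edgeR adjusted p = 0.0120), and Dlx1 rose 4.65-fold (log2 2.22 ± 0.71 SE, adjusted p = 0.0270). Dlx5 rose 2.53-fold (log2 1.34 ± 0.40 SE, adjusted p = 0.0183). The antisense RNAs Dlx6as1 and Dlx1as rose 4.44-fold (adjusted p = 0.0348) and 2.59-fold (adjusted p = 0.0289). Dlx2 had a log2 fold change of 1.67 ± 0.77 SE and did not pass (edgeR adjusted p = 0.107); with the replicate block it rose 3.33-fold (edgeR adjusted p = 0.0130).

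In the fit by group alone, the size of these changes moved with single libraries. Without PP L222 the fold was 15.3 for Dlx6, 13.1 for Dlx6as1, 10.2 for Dlx1 and 7.98 for Dlx2. Without PP L393 it was 4.88 for Dlx6 and 2.95 for Dlx6as1, and without DP L223 it was 1.70 for Dlx1as and 1.93 for Dlx2. Each of these fits kept the other libraries of the set, and no library was left out of the block fit. Within sets the fold was 3.65, 6.31 and 8.60 for Dlx1 and 2.53, 5.03 and 3.70 for Dlx2. For Dlx6as1 it was 2.99, 6.98 and 21.1, and for Dlx6 5.80 and 7.80 where PP was above 0.

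All 6 genes overlapped between PP and DP, whereas 25.1% of all features had every DP library above every PP library. The count of 5 fell to 1 without PP L355 or without DP L223, to 2 without PP L393, without DP L356 or with the fit on these groups alone. It fell to 0 without the set L355, L356 and L357, where edgeR gave 1 gene an unadjusted p below 0.05. Without the set of L222 the count was 6, and without that of L393 it was 5. Leaving out only PP L222 or only DP L394 also gave 6. DESeq2, run only on all 9 libraries, called 4. With the replicate block all 6 rose (51.2% of all features called, 25.7% higher and 25.4% lower). Within sets, DP was higher than PP in 18 of 18 pairs of libraries, which are not independent between genes. The fold ran from 1.70 to 21.1 where PP was above 0.

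**Figure D2:**
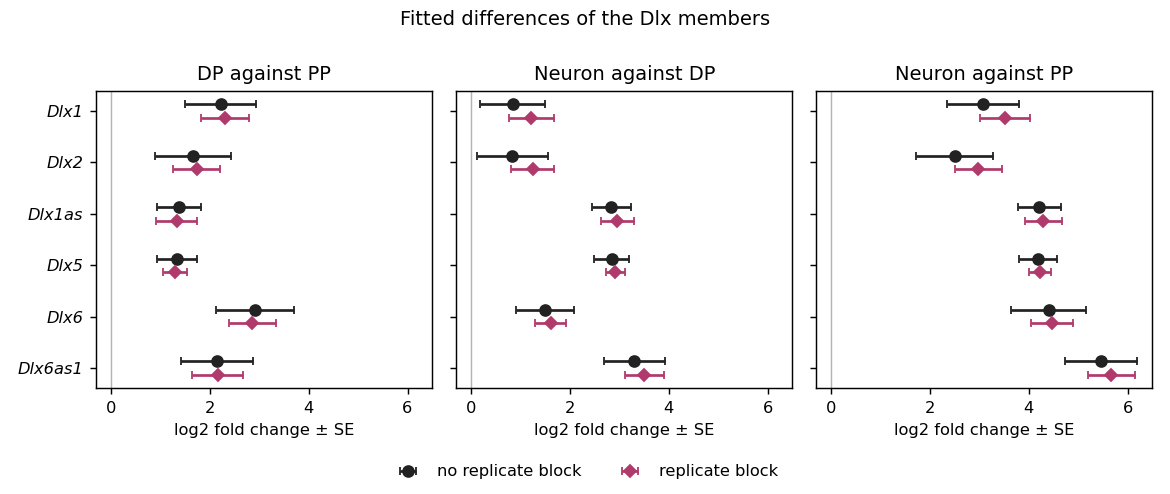
Fitted log2 fold change of each gene on the x axis for the 3 comparisons. Bars are standard errors worked out from the fold change and the F statistic of the edgeR test. Black circles are the fit by group alone and red diamonds the fit with the set of libraries as a replicate block. All points lie above 0, the block shortens the bars, and in the comparison of Neuron with DP Dlx1 and Dlx2 lie left of the other 4 genes.

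Comparing Neuron with DP asks which transcripts differ between neurons and differentiating progenitors. From DP to Neuron, 4 of the 6 genes rose (67.3% of all features called, 33.1% higher and 34.2% lower), with a median log2 fold change over the 6 of 2.16 against -0.04 for all features. Dlx6as1 rose 9.86-fold (log2 3.30 ± 0.62 SE, edgeR adjusted p = 0.000544), Dlx5 7.20-fold (log2 2.85 ± 0.35 SE, adjusted p = 1.84e-05) and Dlx1as 7.14-fold (log2 2.84 ± 0.39 SE, adjusted p = 5.07e-05). Dlx6 rose 2.81-fold (log2 1.49 ± 0.59 SE, edgeR adjusted p = 0.0413). That call was lost with DESeq2 (adjusted p = 0.224), with library totals in place of TMM (edgeR adjusted p = 0.0729), without DP L394 (0.110), Neuron L224 (0.159), DP L356 (0.0827), Neuron L357 (0.0672) or PP L355 (0.0515), and without the set of L355 (0.154). Without DP L223 the folds were 15.0 for Dlx6as1, 11.0 for Dlx1as and 4.25 for Dlx6, and for Dlx1 and Dlx2, still not called, 2.72 and 2.99.

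Every Neuron library was above every DP library for the 4 genes that rose, as for 35.5% of all features. Dlx1 and Dlx2 had log2 fold changes of 0.85 ± 0.66 and 0.84 ± 0.72 SE from DP to Neuron and did not pass (edgeR adjusted p = 0.275 and 0.324). With the replicate block both rose, 2.33-fold and 2.37-fold (edgeR adjusted p = 0.0334 and 0.0278; 73.1% of all features called, 36.0% higher). Within sets, the fold of Dlx1 between Neuron and DP was 1.21, 1.70 and 5.53, and that of Dlx2 1.26, 1.71 and 6.66. For Dlx5 the same folds were 5.92, 6.36 and 13.5. In the set where the DP library was lowest, that of L394, the fold was the largest for each of these 3 genes.

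Across the whole span from PP to Neuron, all 6 genes rose (75.3% of all features called, 36.7% higher and 38.6% lower), and for all 6 every Neuron library was above every PP library, which held for 38.5% of all features. The increase was 43.8-fold for Dlx6as1, 21.2-fold for Dlx6, 18.5-fold for Dlx1as, 18.2-fold for Dlx5, 8.37-fold for Dlx1 and 5.67-fold for Dlx2. Without PP L222 it was 129-fold for Dlx6as1, 42.9-fold for Dlx6, 18.3-fold for Dlx1 and 14.3-fold for Dlx2, and without PP L393 it was 29.2-fold for Dlx6as1 and 13.7-fold for Dlx6. The largest adjusted p among them was that of Dlx2 (edgeR, 0.0119), which rose to 0.0972 without the set L355, L356 and L357. These comparisons share libraries, so their values for a gene are not independent of each other.

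The authors' deposited table of DP against PP gave log2 fold changes of the same sign for all 6 genes, from 1.27 for Dlx5 to 2.35 for Dlx6. Its adjusted p was below 0.05 for Dlx5 (0.0297) and Dlx6 (0.0425), and was 0.0506 for Dlx1, 0.0509 for Dlx1as, 0.144 for Dlx6as1 and 0.205 for Dlx2. For Neuron against DP, the authors' deposited table gave log2 fold changes of 2.90 for Dlx6as1 (adjusted p = 0.00384), 2.78 for Dlx5 (2.90e-08) and 2.74 for Dlx1as (1.18e-06). Dlx6 stood there at 1.31 (0.244), Dlx1 at 0.78 (0.444) and Dlx2 at 0.76 (0.482), again in the authors' deposited table.

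Ratios of members within a library were compared next, with an exact two-sided permutation test on log2 ratios of CPM + 0.1 over 15 tests; 3 libraries against 3 cannot go below p = 0.1, or 0.188 after Benjamini-Hochberg adjustment. Dlx1as had 8.81% ± 2.73 of the reads of Dlx1 in DP and 31.9% ± 6.67 in Neuron (SD, n = 3). The share lay at 8.12%, 6.49% and 11.8% in the DP libraries and at 24.2%, 35.5% and 36.1% in the Neuron libraries, with no overlap (difference 1.84 on the log2 scale, exact permutation p = 0.1). In PP the share was 11.0%, 14.0% and 59.8%, the last from 49 reads of Dlx1as against 82 of Dlx1 in L393, and PP overlapped Neuron.

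At the other locus, the log2 ratio of Dlx6as1 to Dlx6 was 1.98, 1.88 and 2.02 in DP and 3.48, 4.01 and 4.08 in Neuron. The groups did not overlap and differed by 1.90 on the log2 scale (exact permutation p = 0.1, adjusted 0.188). In PP, L222 and L355 lay at 2.74 and 1.70; L393 had 5 reads of Dlx6as1 and 0 of Dlx6, so its 1.02 is set by the pseudocount. DP and PP overlapped, and the sign of their difference turned without PP L393.

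The later acting pair was set against the earlier one in the same way. Dlx5 had 12.0%, 16.5% and 31.3% of the reads of Dlx2 in DP and 56.4%, 61.5% and 63.4% in Neuron (difference 1.69 on the log2 scale, exact permutation p = 0.1). The Neuron libraries were close together, whereas PP, at 12.8%, 26.3% and 64.6%, overlapped both other groups. Within sets, DP was below PP in 3 of 3 for this ratio and for Dlx1as to Dlx1, and Neuron above DP in 3 of 3 for both; a sign-flip test over 3 sets cannot go below p = 0.25, which each of these 4 differences had (exact permutation test). Within the second pair, Dlx6 had 45.9%, 36.9% and 24.4% of the reads of Dlx5 in DP but 18.7%, 14.3% and 11.8% in Neuron, a difference of -1.30 on the log2 scale (exact permutation p = 0.1). It had 18.7%, 14.9% and 0% in PP, below every DP library (difference of DP 1.23 on the log2 scale, exact permutation p = 0.1), but with a pseudocount of 1 CPM that difference was 0.12 (exact permutation p = 0.3). Within the first pair, the log2 ratio of Dlx1 to Dlx2 was 0.19, 0.56 and 0.05 in PP and 0.71, 0.90 and 1.26 in DP (difference 0.69, exact permutation p = 0.1), and Neuron, at 0.66, 0.89 and 1.00, overlapped DP.

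**Figure D3:**
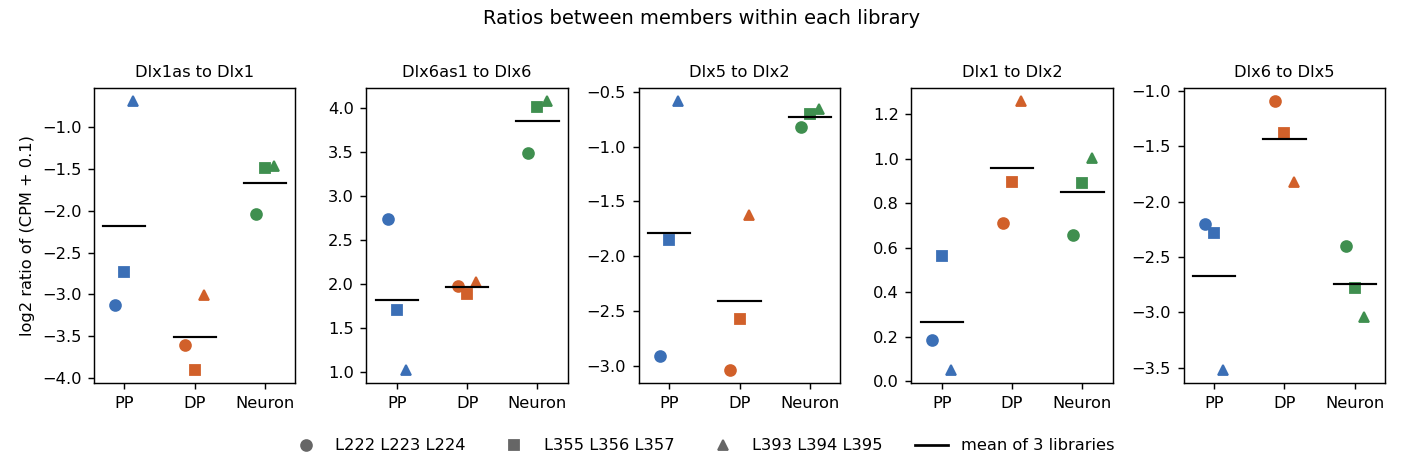
Log2 ratio of (CPM + 0.1) between pairs of the 6 genes in each library (y axis; panels have their own scale) for PP, DP and Neuron; point shapes give the set of libraries and black lines the mean of 3. Dlx1as to Dlx1, Dlx6as1 to Dlx6 and Dlx5 to Dlx2 are higher in every Neuron library than in every DP library, and Dlx6 to Dlx5 is lower; the L393 points of both ratios with Dlx6 rest on 0 reads of it.

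In PP and in DP the libraries kept 1 order for every member, L222 above L355 above L393 and L223 above L356 above L394 (6 of 6 genes in each group). Of the 14997 features with a mean of at least 1 CPM, 23.0% had that order in PP, 17.9% in DP and 7.62% in both. The range within PP, on the log2(CPM + 0.1) scale, had a median of 3.05 over the 6 genes against 0.23 over those features, and within DP 2.35 against 0.26. Within Neuron the median range was 0.53 against 0.18, and 5 of 6 genes, all but Dlx1as, followed the order of sets. Dlx6as1 had the widest range of the 6 in PP, 4.26, and Dlx5 the narrowest, 1.22.

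Transcription factors of ventral progenitors were then read across the same libraries, from a list of 10, of which 8 were tested. Gsx2, which acts above the Dlx genes in the lateral ganglionic eminence, stood at 4.30, 2.43 and 0.390 CPM in PP, at 6.62, 6.08 and 1.11 in DP and at 0.890, 0.427 and 0.155 in Neuron. Vax1, another ventral homeobox gene, stood at 2.74, 0.790 and 0.0822 CPM in PP, at 4.19, 2.29 and 0.507 in DP and at 5.64, 2.97 and 1.03 in Neuron. Both fell along the sets in each group as the Dlx genes did, and both were named after their values were seen. Over the list, 5 of the 6 genes with at least 1 CPM had the order of sets in PP, 4 in DP and 3 in both. Nkx2-1, which defines the medial ganglionic eminence, stayed at or below 0.203 CPM in every library, and Gsx1 at or below 0.518.

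From PP to DP, 1 of the 8 tested ventral factors rose, Otx2, and 1 fell, Sall3, by 3.54-fold (edgeR adjusted p = 4.99e-05). Of all features, 21.3% were higher and 20.2% lower. Sall3 stood at 199, 210 and 172 CPM in PP, the highest of the 8 in each of these libraries. The median log2 fold change of the 8 was 0.78, against -0.02 for all features. With the replicate block 5 rose and 1 fell (25.7% of all features higher and 25.4% lower). Gsx2 (edgeR adjusted p = 0.00206), Vax1 (0.0140) and Olig2 (0.00503) were among those that rose. From DP to Neuron, 6 of 8 fell and none rose (34.2% of all features lower and 33.1% higher), with a median of -3.61. Sall3 fell 16.0-fold (edgeR adjusted p = 6.55e-08). The 2 that did not pass were Vax1 and Nkx6-2 (log2 0.47 and -0.51, edgeR adjusted p = 0.638 and 0.225). Unlike the Dlx genes, the 6 that fell were thus higher in DP than in Neuron.

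**Figure D4:**
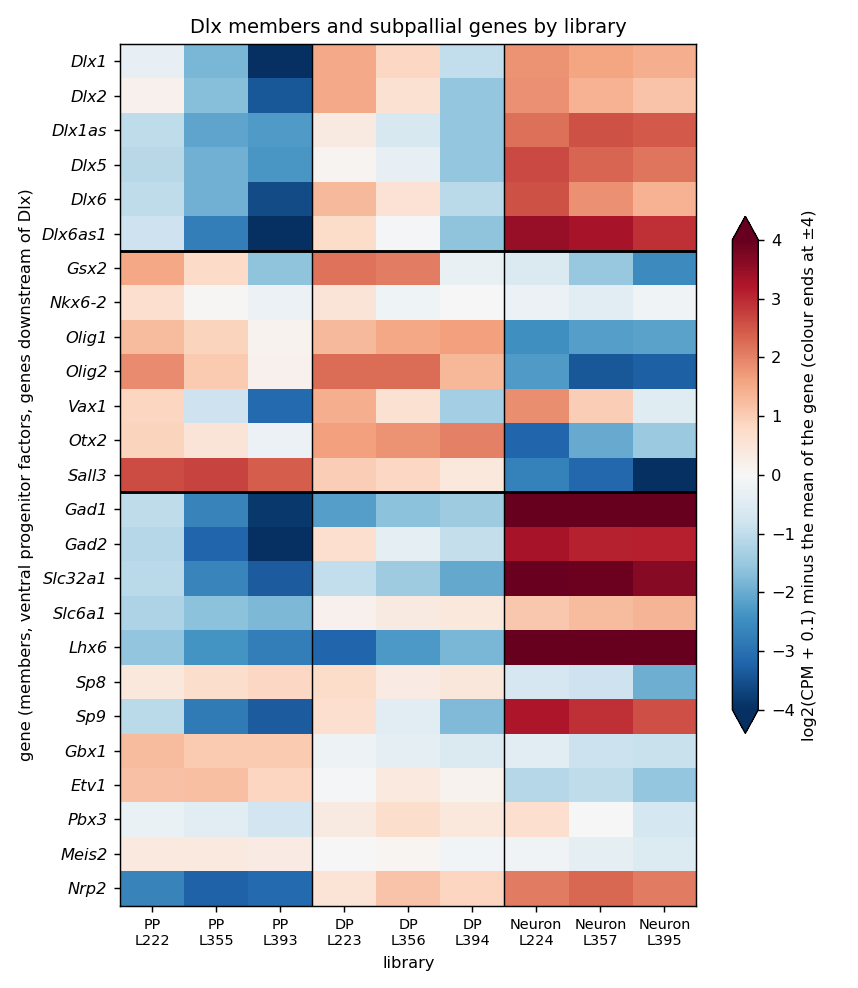
Level of the 6 Dlx genes (top), 7 tested ventral progenitor factors (middle) and 12 tested subpallial genes downstream of Dlx (bottom) in each library on the x axis, as log2(CPM + 0.1) minus the mean of the gene over 9 libraries; colours end at 4 units on either side. The Dlx rows fall from L222 to L393 within PP and from L223 to L394 within DP, as Gsx2, Vax1 and Sp9 do, while Otx2 is low in all 3 Neuron libraries.

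Of 15 subpallial genes known to lie downstream of Dlx factors or to be expressed with them, 13 were tested. From PP to DP 5 rose and 4 fell (21.3% of all features higher and 20.2% lower), and from DP to Neuron 7 rose and 4 fell (33.1% higher and 34.2% lower). The genes that rose into Neuron included those of the GABAergic phenotype. Gad1, a GABA-synthesising enzyme, rose from 0.964 ± 0.279 to 68.9 ± 0.607 CPM (SD, n = 3; 71.2-fold, edgeR adjusted p = 6.97e-08). Its paralog Gad2 rose 9.45-fold (adjusted p = 0.000149), the vesicular transporter gene Slc32a1 41.8-fold (1.19e-07) and Lhx6, a factor of interneurons from the medial eminence, 153-fold (1.59e-09). Sp8, which the cortex itself also expresses, Etv1 and Meis2 were among the 4 that fell.

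In DP, these genes did not all share the spread of the Dlx genes. Gad2 followed the order of sets there, at 13.4, 6.49 and 4.34 CPM, as did Slc32a1, at 1.37, 0.988 and 0.603, and Sp9, a zinc-finger factor of striatal and interneuron precursors, at 8.71, 4.01 and 1.52. Gad1 did not, at 0.659, 1.03 and 1.21 CPM, nor did Lhx6, at 0.283, 0.601 and 0.868. In PP both followed it, Gad1 at 1.64, 0.448 and 0.144 CPM and Lhx6 at 1.05, 0.555 and 0.411, as did Slc32a1 at 1.26, 0.363 and 0.185. In DP, Dlx1 thus stood at 83.5 CPM in the library where Gad1 and Lhx6 were lowest. In the Neuron libraries Gad1 was level, at 68.6, 68.6 and 69.6 CPM. Of the 12 genes of the list with at least 1 CPM, 8 had the order of sets in PP, 3 in DP and 3 in both. Sp9, like 5 of the 6 Dlx genes, rose from PP to DP (log2 2.05, edgeR adjusted p = 0.0221), and Gad2 did too (log2 2.42, adjusted p = 0.00809). Gad1 had 0.49 on the log2 scale (adjusted p = 0.510) and Lhx6 -0.15 (0.813).

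Of 18 genes of cortical interneurons, 9 rose and 1 fell from PP to DP (21.3% of all features higher and 20.2% lower). From DP to Neuron 13 rose and 4 fell (33.1% higher and 34.2% lower), with a median log2 fold change of 3.30. With the replicate block 12 rose and 1 fell from PP to DP (25.7% of all features higher and 25.4% lower). The block gave 13 and 5 from DP to Neuron (73.1% of all features called, 36.0% higher). Zeb2, Cxcr4 and Calb2 then rose from PP to DP (edgeR adjusted p = 0.0173, 0.0285 and 0.0343) and Cxcr4 fell from DP to Neuron (0.0382). Sst, a neuropeptide of interneurons, rose 406-fold from DP to Neuron (edgeR adjusted p = 8.23e-10) and the neuregulin receptor gene Erbb4 40.4-fold (1.42e-09). Sst stood at only 0.0765 ± 0.0327 CPM in DP and at 31.2 ± 8.60 in Neuron (SD, n = 3), so the size of its fold is imprecise. The 4 that fell were Prox1, by 9.38-fold (edgeR adjusted p = 6.68e-08), Sox6, by 5.51-fold (1.09e-09), Htr3a (0.00799) and Satb1 (0.000374). Sox6 stood at 289 ± 16.8 CPM in PP and Prox1 at 69.5 ± 6.35 in DP (SD, n = 3), so the list also holds genes that are high in progenitors. The part of interneurons in these counts was not tested. Of the 17 listed interneuron genes with at least 1 CPM, 4 had the order of sets in PP, 2 in DP and none in both. Of 12 genes of the cortical glutamatergic lineage, 10 rose and 1 fell from PP to DP (21.3% of all features higher and 20.2% lower). Among the 10 was the vesicular glutamate transporter gene Slc17a6, by 27.7-fold (edgeR adjusted p = 5.02e-07). From DP to Neuron, 4 of the 12 rose and 7 fell (33.1% of all features higher and 34.2% lower). Of these 12 genes, 8 had the order of sets in PP, none in DP and none in both.

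Genes of striatal neurons, which also derive from Dlx-expressing progenitors, set 1 Neuron library apart. Of 17 tested, 15 were highest in L224 of the 3 Neuron libraries, which held for 37.0% of all tested features. In L224, 8 of the 17 exceeded both other Neuron libraries by more than 1 on the log2(CPM + 0.1) scale, against 0.499% of all features. Being highest in L224 was also frequent among the cortical glutamatergic genes (9 of 12) and the markers of proliferating progenitors (6 of 8), but none of those exceeded both other libraries by more than 1. Of the 8 ventral factors 5 were highest there and 1 exceeded both by more than 1. For the 6 markers of differentiating progenitors these counts were 3 and 1, and for the 18 interneuron genes 4 and 0. Isl1, a factor of striatal neurons, stood at 11.6, 1.83 and 0.258 CPM in Neuron, and Six3 at 10.7, 2.68 and 0.541; both were named after their values were seen. Drd1a, a dopamine receptor gene, was level at 10.7, 13.6 and 12.9 CPM. Of the Dlx genes, 5 of 6 were also highest in L224, and the part of striatal cells in that was not tested. Without L224 all 6 Dlx genes still rose from PP to Neuron and 3 from DP to Neuron.

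In PP, markers of neurons fell along the sets as well. They summed to 241, 147 and 106 CPM, and 6 of 7 had the order of the Dlx genes. In DP none of the 7 had it. The part of neurons among the sorted PP cells in the spread of the Dlx genes there was not tested.

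Other genes around the loci were read in the same comparisons. Within 200 kb of a member, the deposited annotation held 17 further genes, of which 8 were tested. From PP to DP, none of the 8 was called higher, against 21.3% of all features. Called lower were 4, against 20.2% of all features: Slc25a12, Hat1, Itga6 and Acn9. Metap1d, whose span Dlx1as overlaps, stood at 47.2 ± 1.95 CPM in PP, 49.0 ± 1.34 in DP and 34.0 ± 1.90 in Neuron (SD, n = 3), and fell from DP to Neuron by 0.53 on the log2 scale (edgeR adjusted p = 3.20e-05). Slc25a12, a mitochondrial carrier gene, rose from DP to Neuron by 1.27 on the log2 scale (adjusted p = 6.10e-07). The unannotated transcript XLOC_040971, on the minus strand 64345 bases from Dlx6as1, stood at 0.00895 ± 0.0155 CPM in PP, 0.0302 ± 0.0148 in DP and 1.71 ± 0.0780 in Neuron (SD, n = 3). It rose from DP to Neuron by 5.72 on the log2 scale (edgeR adjusted p = 1.27e-07), and it had 228 reads over all libraries. From PP to DP its log2 fold change was 1.64 and did not pass (edgeR adjusted p = 0.273), at very low levels in both groups. Gm13642 and Gm5873 passed in no comparison; with the replicate block Gm5873 fell from PP to DP (edgeR adjusted p = 0.0393).

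Patterns over the 9 libraries were compared with the mean of the 4 coding Dlx genes, for tested genes with at least 10 CPM on the mean of a group. Genes below that level, such as Gsx2 and Vax1, could not enter. The 10 most alike were, in order, Scg3, Junb, Robo2, Ube2ql1, Negr1, Nell2, Sema3c, Tll2, Slit1 and Mllt11. Likeness was the root mean square difference of centred log2(CPM + 0.1) values, 0.70 for Scg3 and 0.80 for Mllt11, against a median of 1.75 over 11209 genes. The members themselves lay at 0.24 for Dlx6, 0.36 for Dlx1, 0.38 for Dlx2, 0.65 for Dlx5, 0.71 for Dlx1as and 1.07 for Dlx6as1. Each of the 4 coding genes enters that mean, which brings it closer to it. Junb, an AP-1 factor, was the closest that also fell along the sets in both progenitor groups, at 3.22, 2.43 and 1.87 CPM in PP and 8.08, 4.79 and 3.26 in DP. Its range was narrower than that of Dlx1 or Dlx2.

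The single-read and paired-end runs of a library gave the same order of groups but not the same level for each gene. Over libraries with at least 100 reads of the gene, the log2 ratio of single-read to paired-end CPM had a median of -0.49 for Dlx2 and Dlx5, -0.51 for Dlx1as, -0.17 for Dlx6, -0.13 for Dlx1 and 0.05 for Dlx6as1.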

How the data were processed

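RNA of 9 libraries (3 each of PP, DP and Neuron) was sequenced in a single-read and a paired-end run, 18 samples in all. Gene counts were deposited by the authors as whole numbers per gene and run, for 37620 Ensembl release 67 genes and 630 unannotated transcripts on mm9. Among the tools that the submitters' processing notes name, without a role, are featureCounts 1.4.4, BWA 0.5.9-r16 and TopHat2 2.0.10. The comparison tables deposited beside them give a scaled signal, equal to the added counts over a size factor for 319210 of 319212 values within 0.06. They also give the authors' log2 fold changes, with a standard error (a score) and a p-value, per the file headers. A further 12 per-sample columns in tables of unannotated transcripts were not used.

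Columns carry library numbers that no label gives, so each was tied to its group only. The 2 runs of a library were added as 1 replicate, and p-values reflect the spread among pools of embryos. The test was the quasi-likelihood test of edgeR 4.0.16 (R 4.3.3) with TMM scaling, filterByExpr and the group as its term, adjusted by Benjamini-Hochberg over 18627 features at 0.05. The standard error (SE) of a log2 fold change was its absolute value over the square root of the F statistic of the edgeR test. Ratios used a pseudocount of 0.1 CPM and exact permutation tests in scipy 1.17.1. Alternatives were DESeq2 1.42.0, other scalings, no filter, single runs, left-out libraries and a replicate block. For the block, the pairing comes from the consecutive library numbers. The 9 same-set pairs of libraries deviated together (correlations 0.130 to 0.345), the 18 other pairs did not (-0.319 to 0.0106). Deviations from a group mean cancel within the group, so positive values of same-set pairs push those of the other pairs down. The 18 other pairs are thus not independent support for the block. The test was checked on simulated counts, which were drawn without an effect of the sets. That check therefore does not cover the spread that libraries of 1 set share.

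Genes named besides the members were those within 200000 bases, up to 4 called genes per list and comparison with the largest change and at least 10 CPM, and the 10 most alike. List genes under 10 CPM or outside the top 4, such as Gsx2, Vax1, Olig2, Otx2, Nkx2-1, Gsx1, Sp9, Isl1 and Six3, were named after their values were seen. Some genes of the lists are counted but not reported by name here. The members and lists were chosen with earlier results of these data known. Sequences are from RefSeq and GENCODE on GRCm38, which is not the build of the counts.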

Additional observations from a re-analysis of the deposited data

How the results depend on the processing

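The number of Dlx genes called from PP to DP depended most on the libraries, in fits without the block. It was 5 in the reported fit, 2 with these groups fitted alone and 1 to 6 when 1 library was left out. Without a whole set it was 0 for the set L355, L356 and L357, 6 for that of L222 and 5 for that of L393. The cause was not tested. The number ranged from 3 to 4 for Neuron against DP and stayed at 6 for Neuron against PP when 1 library was left out. The replicate block gave 6 in all 3 comparisons, moved no count by more than 1.5 times and changed the calls of Dlx2 (DP against PP), Dlx1 and Dlx2 (Neuron against DP) and no other member. Sets of libraries other than the first were left out after seeing the data. 

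Ratios between members that the reported tests left near 0 changed sign. Dlx6as1 to Dlx6, DP against PP, became -0.26 without PP L393 and -0.29 without its whole set (range over left-out libraries -0.26 to 0.60). Dlx1 to Dlx2, Neuron against DP, ranged from -0.23 to 0.0462, its value without DP L394. Dlx6 to Dlx5, Neuron against PP, was 0.0776 with paired-end runs alone and 0.14 without the set of L355, and ranged from -0.50 to 0.16; with a pseudocount of 1 CPM it was -1.41. The cause was not tested. Ratios that did not overlap between groups kept their sign in every setting run. Precision for Dlx6 in PP is limited by 28 reads over 3 libraries.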
